A study of Mus musculus with 12 samples.

Results

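Among 12 libraries of RNA from mouse colonic adenomas, 3 stood apart from the other 9 along the first principal component of expression and held less RNA of the Wnt target Axin2 than any of them. They were Tet1-null library 1, double-heterozygous library 0 and Tdg-heterozygous library 2, each from another genotype group, so 3 of 12 libraries were set beside the remaining 9. The numbers are those of the columns of the deposited table. All adenomas came from C57BL/6J mice carrying ApcMin/+, an allele that truncates the tumour suppressor Apc, and were taken at 150 to 160 days of age. The groups of 3 libraries were Tet1-/- Tdg+/+ ApcMin/+ (Tet1-null), Tet1+/- TdgN151A/+ ApcMin/+ (double-heterozygous), Tet1+/+ TdgN151A/+ ApcMin/+ (Tdg-heterozygous) and Tet1+/+ Tdg+/+ ApcMin/+ (control). Tet1 oxidises methylated cytosine, and Tdg is the glycosylase that excises the oxidised base. None of the 3 control libraries was among the 3 that stood apart, so no statement here is about genotype. The labels do not say whether a sample is 1 adenoma or several, or whether samples are separate animals.

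Wnt signalling is the main growth signal of the intestinal crypt. Apc belongs to the complex that marks beta-catenin for destruction, and in adenomas that have lost both copies beta-catenin stays in the nucleus with TCF/LEF factors and keeps their targets transcribed. Several of those targets, such as Axin2, Notum, Nkd1, Wif1, Rnf43 and Znrf3, encode inhibitors of the pathway itself and are read as a measure of its activity in epithelium. An adenoma also holds neutrophils, macrophages, fibroblasts, vessels and, where the muscle layers are sampled, smooth muscle, and RNA of the whole piece is a mixture of these.

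The 3 libraries were chosen by their scores on component 1 and their levels of Wnt targets, and so by the expression of every gene analysed, namely the 15150 of 25705 genes with an FPKM (sequenced fragments corrected for the length of the transcript and the size of the library) of at least 1 in at least 3 of 12 libraries. All differences below between the 3 and the 9 are therefore a description, with no test. The 3 libraries were not averaged, and values are given in the order Tet1-null library 1, double-heterozygous library 0, Tdg-heterozygous library 2, followed by the lowest to the highest of the 9 others. In a mixed tissue, fewer cells of a type and less RNA per cell cannot be told apart.

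Component 1 held 37.2% of the variance of log2(FPKM + 1) and component 2 held 11.2%. The 3 libraries scored 78.9, 42.5 and 80.8 on component 1. The nearest of the others was double-heterozygous library 2 at 3.31, which left a gap of 39.2 below double-heterozygous library 0, the innermost of the 3. Component 2 set the 3 apart from each other, at 38.7, -21.5 and -43.1.

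**Figure D1:**
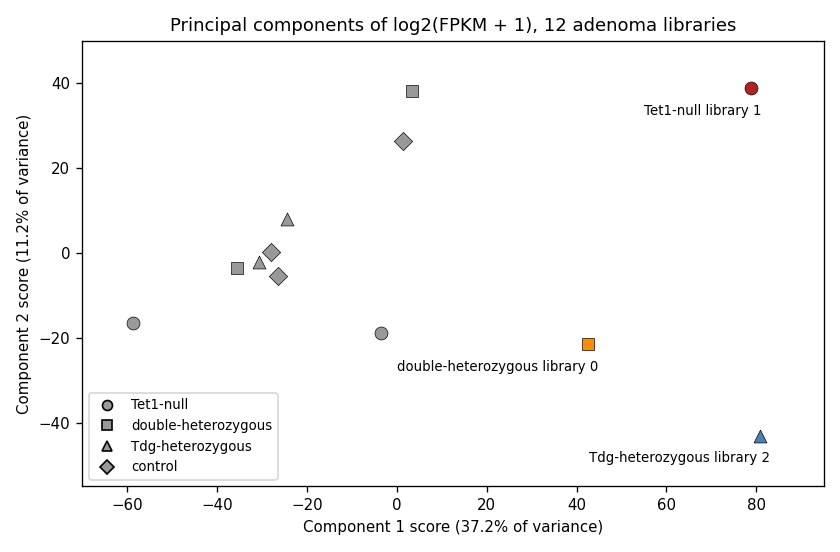
Scores of the 12 libraries on components 1 and 2 of log2(FPKM + 1) over 15150 genes, with 1 point for each library and a symbol for each genotype group. The 3 coloured libraries lie at 42.5 or more on component 1 and the grey libraries at 3.31 or less.

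The libraries differed in composition at large as well. The summed FPKM was 872289, 779445 and 977282, against 663551 to 803368 in the others, so 2 of the 3 exceeded all 9. Ribosomal protein genes made up 10.2%, 10.5% and 8.61% of the summed FPKM against 10.7% to 13.2%, below all 9 in each. Genes of the mitochondrial genome made up 19.8%, 17.5% and 18.7% against 15% to 19%. Their part in the differences below was not tested.

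The 5 marker genes of the 3 libraries did not all behave alike. Axin2 (chr11:108920349-108950783, plus strand, in GRCm38 as annotated by GENCODE M21), the scaffold that feeds back on the Wnt pathway, was at 9.98, 62.9 and 21.1 FPKM. The 9 others ranged from 96.1 to 173 FPKM with a median of 122, so all 3 libraries were lower than every other. Lgr5 (chr10:115450311-115587780, minus strand), a receptor of R-spondins that marks crypt stem cells, was at 5.14, 53.8 and 13.5 FPKM against 13.6 to 68.3 (median 41.8). Tet1-null library 1 lay below the others and Tdg-heterozygous library 2 just below them, while double-heterozygous library 0 lay inside their range, so a low Wnt state is not borne out by Lgr5 there. Klf6 (chr13:5861482-5870394, plus strand), an immediate early transcription factor, was at 135, 176 and 255 FPKM against 23.3 to 66.6 (median 32.3). S100a8 (chr3:90668978-90670035, plus strand), a calcium-binding protein abundant in neutrophils, was at 848, 1750.5 and 3267 FPKM against 68.6 to 712 (median 153). Both genes were higher in all 3 libraries than in any of the 9. Acta2 (chr19:34241090-34255590, minus strand), the actin of smooth muscle and myofibroblasts, was at 181, 48.3 and 15.4 FPKM against 36.9 to 85.3 (median 55.6). It lay above the others in Tet1-null library 1, inside their range in double-heterozygous library 0 and below them in Tdg-heterozygous library 2.

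Over all genes analysed, 1853 (12.2%) were higher in all 3 libraries than in all 9 others and 1528 (10.1%) were lower in all 3. These shares are the background for the counts of list members in all 3 that follow. With all libraries scaled to the same total, the split turned to 926 higher and 2625 lower. That scaling put the median gene of the 3 at -0.21, -0.03 and -0.38 (log2) relative to the 9. On the deposited scale it was at 0.01, 0.05 and -0.01. Single libraries lay above all 9 others for 29.5%, 27.2% and 28% of genes and below all 9 for 25.7%, 20.5% and 28.4%, in the order given. A separation of at least 1 on the log2 scale between the 3 and the 9 was met by 46 genes (0.304%) that were higher and 49 genes (0.323%) that were lower.

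Feedback targets of Wnt were the 1 list whose median lay below those of all 9 others in each of the 3 libraries. Of its 13 genes analysed, 12 were lower in all 3 libraries than in each of the others and 0 were higher, against the 10.1% and 12.2% of all genes. The median member differed from its own median in the 9 others by -3.99, -1.43 and -2.54 (log2), and the same median ran from -0.35 to 0.60 within the 9. Notum, a secreted enzyme that inactivates Wnt ligands, was at 0.7, 49.8 and 8.53 FPKM against 137 to 273 (median 182) in the others. Tet1-null library 1 thus held under 1 FPKM of a gene whose lowest value in the 9 was 137 FPKM. Nkd1, which binds Dishevelled, was at 1.25, 27.7 and 3.92 FPKM against 79.1 to 161 (median 104). Wif1, a secreted protein that binds Wnt ligands, was at 5.06, 54.4 and 23.7 FPKM against 176 to 488 (median 348). Double-heterozygous library 0 was closest to the others for all 3 genes, and Tet1-null library 1 farthest.

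The ubiquitin ligases and the transcription factors of the list followed that order. Rnf43, a ligase that removes Frizzled receptors, was at 16.7, 72.4 and 32.2 FPKM against 92.3 to 182 (median 114), and its partner Znrf3 was at 3.05, 9.76 and 4.03 FPKM against 11.9 to 27.3. Lef1, a factor that binds DNA with beta-catenin, was at 0.331, 3.08 and 0.622 FPKM against 10.9 to 22.9 (median 13.9). Tcf7, of the same family, was at 3.67, 21.3 and 13 FPKM against 22.3 to 43.9, where double-heterozygous library 0 was only narrowly outside. Sp5, a repressor downstream of beta-catenin, was at 0.531, 8.07 and 3.57 FPKM against 14.8 to 29.1 (median 23.4). Prox1, a homeobox gene active in colonic adenoma epithelium and in lymphatic vessels, was at 1.46, 15.3 and 3.55 FPKM against 39.3 to 101 (median 58). The receptor gene Tnfrsf19 was at 0.335, 6.88 and 1.41 FPKM against 9.92 to 29.8, and the membrane inhibitor Apcdd1 at 2.0, 11.3 and 2.12 FPKM against 26.5 to 157. The exception among the 13 was Dkk2, a secreted Wnt modulator, at 0.477, 22.9 and 12.8 FPKM against 17.6 to 54.2, which lay inside the range in double-heterozygous library 0.

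**Figure D2:**
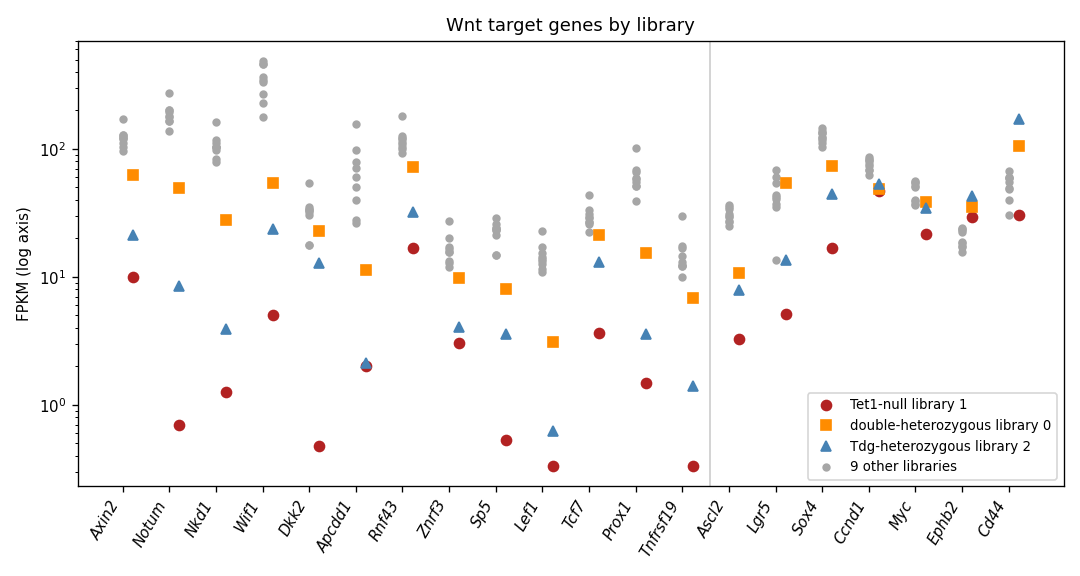
FPKM (log axis) of 13 feedback targets of Wnt, left of the line, and 7 further Wnt targets, with the 9 other libraries in grey and the 3 libraries in colour. The coloured points lie under the grey ones for the feedback genes other than Dkk2, with Tet1-null library 1 lowest, whereas for Ephb2 they lie above them.

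Targets of Wnt tied to growth, adhesion and matrix were mixed. Of 13 genes analysed, 4 were below the others in all 3 libraries, namely Ccnd1, Sox4, Ascl2 and Id2, and 1 was above, Ephb2. Ascl2, a transcription factor of crypt stem cells, was at 3.28, 10.7 and 7.87 FPKM against 25 to 36.5 (median 30.1). Sox4 was at 16.8, 73.2 and 44.8 FPKM against 104 to 147 (median 125). Ccnd1, the G1 cyclin, was at 46.8, 49 and 53.2 FPKM against 62 to 86, a smaller distance. Ephb2, a receptor that positions cells along the crypt, went the other way at 29.2, 35.4 and 43 FPKM against 15.5 to 23.9 (median 18.6). Cd44, a hyaluronan receptor, was at 30.2, 105 and 173 FPKM against 30.3 to 67.2, just under the others in Tet1-null library 1 and above them in the other two. Mmp7, a matrix protease gene made by Paneth cells and by adenoma epithelium, was at 37.2, 623 and 229 FPKM against 335 to 784, with double-heterozygous library 0 close to the median of the 9. Myc was at 21.5, 38.6 and 34.3 FPKM against 36.6 to 56.1.

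Stem cell genes were likewise uneven, with 6 of 16 below in all 3 libraries and 1 above. Of the 6, Axin2, Rnf43 and Tnfrsf19 are also in the list of feedback targets, and Ascl2 is also in the growth list. Axin2 also served in choosing the libraries, so the count is no separate reading of stem cells. Only Msi1 and Smoc2 are not on those lists. Msi1, an RNA-binding protein of stem and progenitor cells, was at 0.18, 1.35 and 0.49 FPKM against 3.46 to 9.41. Smoc2, a secreted matrix protein of the stem cell signature, was at 26, 46.9 and 24.4 FPKM against 59.2 to 115. Aqp4, a water channel that is also in the colonocyte list, was above the others in all 3 at 56, 28.3 and 30.0 FPKM against 1.55 to 24.2 (median 5.2). Olfm4, a stem cell marker in other settings, was listed at under 1 FPKM in all 12 libraries and was not analysed.

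Genes of dividing cells were not low in all 3. The list median was -0.13, -0.57 and -0.02 (log2) against -0.22 to 0.56 within the 9. Double-heterozygous library 0 alone was below all 9 for 22 of 25 genes, where 20.5% of all genes were. Top2a, the topoisomerase of replicating cells, was at 76.7, 52.3 and 100.5 FPKM against 96 to 194 (median 123). Mki67 was at 30.9, 16.5 and 24.2 FPKM against 17.1 to 34.7, so that Tet1-null library 1 and Tdg-heterozygous library 2 lay inside the range. The library closest to the others in feedback targets of Wnt had the lowest list median for cell division.

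Paneth cells are secretory cells of the small intestinal crypt that are rare in normal mouse colon, and their products were present in the 9 others. All 15 genes of the list were below the others in Tet1-null library 1, against 1 in double-heterozygous library 0 and 10 in Tdg-heterozygous library 2, where 25.7%, 20.5% and 28.4% of all genes were. The list medians were -4.03, 0.40 and -2.21 (log2) against -1.66 to 0.27, below the 9 in Tet1-null library 1 and Tdg-heterozygous library 2 and above them in double-heterozygous library 0. Lyz1, the Paneth cell lysozyme, was at 123, 2032 and 527 FPKM against 214 to 1826 (median 1214). Defa24, an alpha-defensin, was at 3.99, 1098 and 131 FPKM against 108 to 1608 (median 879). Itln1, a lectin of Paneth and goblet cells, was at 1.14, 105 and 34 FPKM against 43.9 to 224 (median 161). Double-heterozygous library 0 was above all 9 for Lyz1 and above their median for Defa24. Defa17, Defa21, Defa22, Defa23, Defa26 and Defa5 were listed at 0 in Tet1-null library 1. The alpha-defensin genes are near-identical copies, so reads can be split among them and single values are uncertain.

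Genes of mature colonic epithelium were higher mainly in Tet1-null library 1 and, within the range of the others, in Tdg-heterozygous library 2. Of 29 colonocyte genes, 21, 6 and 16 were above all 9 others and 2, 3 and 2 below, where 29.5%, 27.2% and 28% of all genes were above, so the share in double-heterozygous library 0 was under that of all genes. The list medians were 2.45, 0.66 and 1.87 (log2) against -1.28 to 1.91 within the 9, so only Tet1-null library 1 left the range. Control library 0, at 1.91, was above Tdg-heterozygous library 2. Double-heterozygous library 2 (1.11) and Tet1-null library 2 (1.06) were above double-heterozygous library 0. These libraries were the nearest of the 9 on component 1, at 1.32, 3.31 and -3.55. Krt20, a keratin of surface epithelium, was at 463, 337 and 1053 FPKM against 8.72 to 285 (median 33). Emp1, a membrane protein, was at 486, 439 and 1429 FPKM against 20.7 to 182 (median 42.6), and the adhesion molecule Ceacam1 was at 379.9, 392 and 924 FPKM against 38.1 to 341 (median 117). These genes were higher in all 3. Slc26a3, the chloride exchanger of surface colonocytes, was at 87.2, 2.18 and 23.2 FPKM against 0.0878 to 29.1 (median 4.93), and Car4, a membrane-bound carbonic anhydrase, was at 165, 4.34 and 83 FPKM against 0.227 to 52.3 (median 10.2). In double-heterozygous library 0 both lay under the median of the others, whereas in Tet1-null library 1 both exceeded all 9. Against the list, the sodium-proton exchanger Slc9a3 was at 1.63, 16 and 1.7 FPKM against 35.1 to 73.2 (median 47.8), below in all 3.

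Genes shared by most intestinal epithelial cells were higher too. Of 18 such genes, 9 were above the others in all 3 libraries and 0 below, with list medians of 0.97, 0.69 and 1.25 (log2) against -0.41 to 0.43. Krt19 was at 3483, 2211 and 3750.4 FPKM against 896 to 1795 (median 1179), and Lgals4, a galectin, was at 4494, 2465 and 3851 FPKM against 324 to 2061 (median 993). Phgr1, a small epithelial protein, was at 1425, 844 and 1352 FPKM against 34.4 to 728 (median 188). Epcam, the adhesion molecule that defines the epithelium, was at 1212, 1218 and 1856 FPKM against 753 to 1303 (median 994), inside the range in the first 2 libraries and above it in the last. The colonic identity gene Hoxb13 was at 159.5, 80.7 and 104 FPKM against 25.1 to 139.9. Its list of 12 positional genes had medians of 0.92, 0.05 and 0.33 (log2) against -0.09 to 0.24. Above all 9 were 3, 0 and 2 of the 12 and below were 2, 2 and 4. Of all genes, 29.5%, 27.2% and 28% were above and 25.7%, 20.5% and 28.4% below. In all 3 libraries 0 were above and 2 below. Hoxd13 lay inside the range in each, at 133, 76.5 and 108 FPKM against 0.21 to 144. Of the small intestinal genes, Sis, Lct and Apoa4 were at or near 0 and did not pass the filter. The 9 that passed had list medians of 1.22, 0.46 and 0.41 (log2) against -0.18 to 0.48, so Tet1-null library 1 left the range. In that library 3 of these genes were above all 9 others and 2 below, where 29.5% and 25.7% of all genes were. Both counts were thus near the background. Among the 3 above, Fabp6, an ileal bile acid binding protein, was at 8.7 FPKM against 0.604 to 4.38 in the 9. Rbp2, a retinol binding protein, was at 12.2 FPKM against 0.702 to 7.3.

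Goblet cell genes were spread widely among the 9 themselves. Their list medians were 1.71, 0.49 and 1.51 (log2) against -1.57 to 1.63. Retnlb, a secreted goblet cell protein of mucosal defence, stood out at 238, 186 and 235 FPKM against 1.39 to 40.8 (median 6.09), above the others in all 3. The mucus protein Zg16 was at 1332, 913 and 2682 FPKM against 9.3 to 3226 (median 394), and Fcgbp, another, was at 361, 103 and 550.5 FPKM against 12.4 to 674 (median 96.4). Both lay inside the range in each of the 3 libraries. Atoh1, the factor that specifies secretory cells, was at 18.1, 3.89 and 4.85 FPKM against 0.669 to 20.0. Enteroendocrine cell genes, which include hormones, transcription factors and granule proteins, had list medians of 0.95, 0.41 and 1.01 against -0.84 to 0.51. Among them Insl5 was at 48.2, 4.53 and 23.3 FPKM against 0.217 to 12.2 (median 3.27) and Gcg at 13.9, 2.52 and 10.5 FPKM against 0.0607 to 4.02 (median 0.818), with Tet1-null library 1 highest for both.

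Genes of wounded epithelium and of the mechanosensitive factor YAP were higher in the 3. Of 19 genes, 9 were above the others in all 3 libraries, 0 were below, and the list medians were 0.66, 1.49 and 2.09 against -0.60 to 0.30. Anxa1, an annexin, was at 1296, 1623 and 5625 FPKM against 253 to 565 (median 455). Areg, a ligand of the EGF receptor, was at 93, 93 and 140.3 FPKM against 5.11 to 36.7 (median 12.5), and Hbegf, another such ligand, was at 34.1, 50.5 and 96.6 FPKM against 5.95 to 17.7 (median 9.66). Plaur, the urokinase receptor, was at 54.3, 144 and 419 FPKM against 15.5 to 38.7 (median 28.2). For these 4 genes the 3 libraries did not overlap with the 9. Clu, a chaperone that marks regenerating epithelium, was at 51.7, 489 and 797 FPKM against 137 to 767 (median 293), below the others in Tet1-null library 1 and above them in Tdg-heterozygous library 2. Tead4, a DNA-binding partner of YAP, was at 9.03, 7.68 and 13.5 FPKM against 1.02 to 2.0 (median 1.77).

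Small proline-rich proteins, which harden the surface of stressed epithelium, held the widest gap above among genes with a proper name. Sprr2h, the gene farthest above, was at 33.6, 131 and 95.6 FPKM against 0.289 to 3.25 (median 0.95), between 17.7 and 67.6 times the median of the others on the FPKM + 1 scale. Sprr1a was at 73.2, 238 and 329 FPKM against 8.24 to 52.7 (median 20.4). Sprr2d was at 0.308, 39.7 and 2.87 FPKM against 0 to 1.01 (median 0.218) and lay above the others in double-heterozygous library 0 and Tdg-heterozygous library 2. Its highest value in the 9 was barely over the filter limit of 1 FPKM. Sprr2b was at 1.44, 146 and 24.4 FPKM against 3.1 to 26.4 (median 11.2), above the others in double-heterozygous library 0 alone. The family consists of close copies on chromosome 3, so reads may be shared between them. The defining genes of squamous epithelium, Krt5 and Trp63, stayed under 1 FPKM in all 12 libraries, while Krt13 was at 129.8, 10.8 and 125 FPKM against 3.14 to 13.7 (median 8.77) and Krt14 at 85.2, 20.1 and 109.7 FPKM against 6.31 to 36.3 (median 21.4), both above the others in Tet1-null library 1 and Tdg-heterozygous library 2. Krt17 of the same list was at 0.219, 12.2 and 11.5 FPKM against 6.57 to 41.2 (median 19.9), below the others in Tet1-null library 1. The list medians were 0.07, 0.20 and 0.59 (log2) against -0.75 to 0.14, and of 10 genes 3, 3 and 5 were above all 9 and 3, 0 and 1 below. Shares over all genes were 29.5%, 27.2% and 28% above and 25.7%, 20.5% and 28.4% below. Both counts in Tet1-null library 1 and the count above in double-heterozygous library 0 were thus near the background.

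The 250 bases before the start of each gene were read from RefSeq on GRCm38.p6 for 10692 of the 15150 genes and searched for TGANTCA, the AP-1 letters bound by Fos and Jun. It reads the same on both strands. They were present in 4.55% of all promoters, in 85 of 1378 (6.17%) of genes higher in all 3 libraries and in 46 of 1162 (3.96%) of genes lower in all 3. The letters of the TCF/LEF motif, CTTTGAT on either strand, were in 2.47% of all promoters, in 1.81% of genes higher in all 3 and in 3.7% of genes lower in all 3. The CArG box of serum response factor was in 1.16%, 1.16% and 1.38%. Each motif was searched alone, so overlapping matches of different motifs each count. Within these windows 0 of 22 immediate early genes held the AP-1 letters, and 1 of 10 feedback targets of Wnt, Sp5, held the TCF/LEF letters. Promoters of 6 genes that were above the 9 others in at least 1 of the 3 libraries are shown 5′ to 3′ along the gene, ending at the base before the start, with AP-1 letters in capitals, because the 4 Sprr genes lie together on chromosome 3 and the 3 Sprr2 genes hold the letters at like distances.
Sprr2h (chr3:92385435-92385684, plus strand): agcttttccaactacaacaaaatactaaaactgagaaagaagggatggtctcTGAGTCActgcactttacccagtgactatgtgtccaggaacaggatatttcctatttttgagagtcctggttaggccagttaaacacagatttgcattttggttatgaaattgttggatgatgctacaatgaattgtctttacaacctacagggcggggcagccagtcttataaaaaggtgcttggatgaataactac
Sprr2d (chr3:92338890-92339139, plus strand): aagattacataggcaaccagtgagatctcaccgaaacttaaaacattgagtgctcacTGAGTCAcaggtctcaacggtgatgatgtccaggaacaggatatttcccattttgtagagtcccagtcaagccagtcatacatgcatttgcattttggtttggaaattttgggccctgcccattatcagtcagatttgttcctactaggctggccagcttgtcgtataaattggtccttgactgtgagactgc
Sprr2b (chr3:92316455-92316704, plus strand): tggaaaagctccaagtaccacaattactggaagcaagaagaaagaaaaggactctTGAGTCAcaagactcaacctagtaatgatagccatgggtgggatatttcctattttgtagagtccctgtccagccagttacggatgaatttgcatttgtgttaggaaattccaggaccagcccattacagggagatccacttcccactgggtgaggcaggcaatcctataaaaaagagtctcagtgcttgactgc
Sprr1a (chr3:92485882-92486131, minus strand): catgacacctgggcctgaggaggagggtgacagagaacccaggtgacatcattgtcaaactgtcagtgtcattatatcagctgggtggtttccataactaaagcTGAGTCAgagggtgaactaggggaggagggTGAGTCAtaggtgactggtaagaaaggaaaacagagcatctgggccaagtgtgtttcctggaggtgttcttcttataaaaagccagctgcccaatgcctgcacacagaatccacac
Plaur (chr7:24462233-24462482, plus strand): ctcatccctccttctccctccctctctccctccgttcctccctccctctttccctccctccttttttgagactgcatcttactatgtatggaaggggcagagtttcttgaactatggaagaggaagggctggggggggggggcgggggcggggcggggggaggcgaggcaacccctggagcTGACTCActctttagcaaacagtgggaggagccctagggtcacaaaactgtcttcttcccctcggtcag
Emp1 (chr6:135362681-135362930, plus strand): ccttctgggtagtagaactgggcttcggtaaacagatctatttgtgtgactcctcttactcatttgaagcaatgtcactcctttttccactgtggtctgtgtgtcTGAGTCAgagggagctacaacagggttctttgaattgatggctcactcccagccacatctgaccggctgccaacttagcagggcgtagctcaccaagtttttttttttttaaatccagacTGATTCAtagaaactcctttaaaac

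The AP-1 letters began 198, 193 and 195 bases before the start in Sprr2h, Sprr2d and Sprr2b. In Sprr1a they began 146 and 116 bases before it, in Plaur 69 bases, and in Emp1 145 and 25 bases. Among the named genes, Clca4, Duoxa2, Hoxd11, Krt13, Mmp3 and Mmp7 also held the letters and are not shown. Of these, Mmp7 was below the 9 others in Tet1-null library 1 and Tdg-heterozygous library 2. A match of letters is no measurement of binding, and no factor was measured on DNA here.

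Immediate early genes, which cells transcribe within minutes of a stimulus, were higher above all in 2 of the 3 libraries. Of 27 genes, 10, 22 and 24 were above all 9 others, where 29.5%, 27.2% and 28% of all genes were, and 6, 1 and 2 were below. In all 3 libraries 10 were above, and the count in Tet1-null library 1 was not far over the background. The list medians were 0.26, 1.14 and 1.52 (log2) against -0.13 to 0.24. Fos was at 113, 169 and 234 FPKM against 13.9 to 52.4 (median 21.1) and Fosb at 6.05, 20.0 and 27.5 FPKM against 1.2 to 2.64 (median 1.54). Dusp1, a phosphatase that ends MAP kinase signalling, was at 38.3, 146 and 214 FPKM against 14.2 to 26.3 (median 20.5), and Klf2 was at 8.5, 14.7 and 23.9 FPKM against 2.54 to 4.35 (median 3.48). These 4 genes were above the others in all 3 libraries. Jun was not, at 21.2, 113 and 76.1 FPKM against 101 to 162 (median 123), below the others in Tet1-null library 1 and in Tdg-heterozygous library 2. Atf3, a stress factor, was at 10.1, 57.5 and 49.3 FPKM against 13.6 to 23.8 (median 18.5), below the others in Tet1-null library 1 and above them in the other two. Nr4a2 was below in all 3 at 2.06, 3.75 and 2.49 FPKM against 5.11 to 18.

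Hypoxia and glycolysis genes had list medians of 0.56, 0.99 and 1.36 against -0.27 to 0.25, and 9 of 18 were above the others in all 3. Slc2a1, the glucose transporter GLUT1, was at 127, 272 and 450.4 FPKM against 38.9 to 91.4 (median 54.5). Adm, the vasodilator adrenomedullin, was at 12.9, 54.3 and 114 FPKM against 2.66 to 8.23 (median 5.33), and Car9, a carbonic anhydrase of hypoxic cells, was at 88.7, 119 and 152 FPKM against 16.7 to 50.7 (median 27.7). Vegfa, the vessel growth factor, was at 42.3, 114 and 189 FPKM against 44.2 to 64.6 (median 59.4), just under the others in Tet1-null library 1. Pfkfb3, a regulator of glycolysis, was at 5.32, 31.1 and 37.6 FPKM against 6.73 to 16, again lowest in that library and highest in Tdg-heterozygous library 2. Heat shock and ER stress genes had list medians inside the range of the 9 in each library (-0.05, 0.09 and 0.09 against -0.28 to 0.76).

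**Figure D3:**
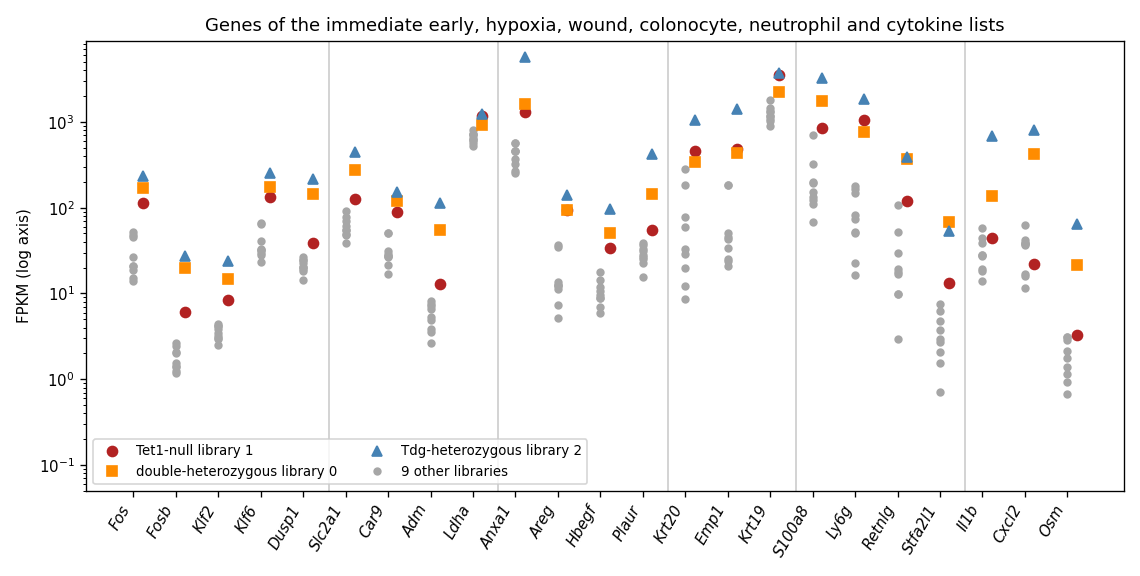
FPKM (log axis) of 23 genes from 6 lists, in order immediate early, hypoxia, wound epithelium, colonocyte and epithelium, neutrophil, and cytokine, with the 9 other libraries in grey and the 3 libraries in colour. Most coloured points lie above the grey ones, but Il1b and Cxcl2 of Tet1-null library 1 lie among them. The genes were chosen with their values seen. List members that went the other way, such as Jun, Nr4a2, Slc9a3 and Cxcl9, are not drawn.

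Neutrophil genes were higher in the 3 libraries in unequal degree. Of 21 genes, 10, 15 and 15 were above all 9 others, where 29.5%, 27.2% and 28% of all genes were, and 10 were above in all 3. The list medians were 0.80, 1.83 and 2.80 against -0.40 to 0.59. Ly6g, the surface marker of neutrophils, was at 1062, 765 and 1825 FPKM against 16.5 to 180.5 (median 73.3). Retnlg was at 119.8, 373 and 385 FPKM against 2.94 to 109 (median 17.7), and Stfa2l1 at 13.3, 67.7 and 53.9 FPKM against 0.72 to 7.47 (median 2.96). Ly6g did not follow these genes within the 9. Tet1-null library 2 had the highest Ly6g of the 9 (180.5 FPKM) but the lowest Retnlg (2.94 FPKM) and Stfa2l1 (0.72 FPKM). The receptor genes Cxcr2 (4.61, 8.13 and 11.8 FPKM against 0.745 to 3.17) and Csf3r (10.8, 13.1 and 31.1 FPKM against 1.22 to 5.82) were above the others in all 3 at lower levels. The granule enzymes Elane and Mpo, made by precursors in bone marrow, were at or near 0 in all 12 libraries. Ltf and Lcn2 were not higher, with Lcn2 at 30.7, 256 and 126 FPKM against 66.6 to 512 (median 231).

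Cytokines and chemokines set double-heterozygous library 0 and Tdg-heterozygous library 2 apart from Tet1-null library 1. Of 23 genes, 2, 18 and 18 were above all 9 others, where 29.5%, 27.2% and 28% of all genes were. The list medians were -0.32, 2.27 and 2.51 against -0.67 to 0.70. Il1b was at 44.2, 138 and 685 FPKM against 14.1 to 57.6 (median 27.7). The neutrophil attractant Cxcl2 was at 21.9, 419 and 803 FPKM against 11.6 to 63.1 (median 37.8), its relative Cxcl3 at 5.46, 120.2 and 334 FPKM against 2.98 to 20.8 (median 7.59), and the macrophage chemokine Ccl4 at 3.32, 47 and 169 FPKM against 0.98 to 11 (median 1.98). In each of these 4 genes Tet1-null library 1 lay inside the range of the 9 and the other two lay above it. Osm, which signals from myeloid cells to stroma, and Csf3, the growth factor of neutrophils, were above in all 3, with Osm at 3.29, 21.5 and 64.2 FPKM against 0.669 to 3.15 (median 1.77) and Csf3 at 3.65, 20.0 and 11.9 FPKM against 0.115 to 1.53 (median 0.367). Among the 9, only control library 2 reached 1 FPKM for Csf3, which therefore passed the filter only through the 3 libraries. The interferon-induced chemokine Cxcl9 was not higher, at 0.138, 0.557 and 0.0259 FPKM against 0.365 to 18.4.

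Macrophage genes did not follow the neutrophil genes. The list medians were -0.73, -0.45 and -0.22 (log2) against -0.60 to 0.73, so only Tet1-null library 1 left the range. Above all 9 others were 3, 5 and 8 genes, and below were 11, 10 and 8. Of all genes, 29.5%, 27.2% and 28% were above and 25.7%, 20.5% and 28.4% below. Of 21 genes, 6 were below the others in all 3 libraries, namely Emr1, C1qa, C1qb, Ms4a7, Cx3cr1 and Apoe, and 2 were above, Cd14 and Arg1. Emr1, named Adgre1 in GENCODE M21 and encoding the macrophage marker F4/80, was at 1.65, 1.16 and 1.65 FPKM against 2.44 to 7.03. C1qa, a complement gene of tissue macrophages, was at 25.6, 29.1 and 17.6 FPKM against 33 to 108 (median 53.5). Arg1, the arginase of alternatively activated and suppressive myeloid cells, was at 60.9, 243 and 468 FPKM against 6.87 to 35 (median 24.4). Lyz2, the myeloid lysozyme, was at 86.6, 56.8 and 144 FPKM against 127 to 530.2 (median 324).

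Other leukocyte genes were mostly inside the range of the 9 or below it. Class II genes were lowest in double-heterozygous library 0, with H2-Aa at 60.2, 14.1 and 31.2 FPKM against 34.8 to 204 (median 61.2), H2-Eb1 at 25.9, 5.41 and 16.4 FPKM against 18.1 to 120.2 (median 33.4) and the invariant chain Cd74 at 63.8, 22.4 and 38.5 FPKM against 62.8 to 295. Of 11 mast cell genes, 3 were below in all 3, and the protease Mcpt1 was at 0.653, 2.06 and 3.78 FPKM against 3.88 to 143 (median 6.08). T and NK cell genes had list medians of -0.45, -0.47 and -0.65 against -0.53 to 0.52, over only 6 genes analysed. B and plasma cell genes had list medians inside the range (0.17, 0.45 and -0.35 against -0.58 to 1.16). Interferon-induced genes were spread over the 9, from -0.66 to 2.09, and had medians of -0.83, -0.41 and -0.26 in the 3.

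The supporting tissue differed among the 3 libraries. Smooth muscle genes had list medians of 1.68, -0.00 and -0.360 against -0.363 to 0.48, so only Tet1-null library 1 left the range. In Tet1-null library 1, 12 of 17 genes were above all 9 others and 0 were below, whereas in Tdg-heterozygous library 2, 2 were above and 7 were below. Of all genes, 29.5% were above and 25.7% below in the former library, and 28% and 28.4% in the latter. Des, the muscle intermediate filament, was at 52.6, 5.15 and 2.8 FPKM against 1.11 to 9.54 (median 1.76). Myh11, the smooth muscle myosin, was at 25.5, 2.06 and 0.654 FPKM against 0.716 to 5.01 (median 1.69), and Cnn1, calponin, at 40.4, 3.22 and 1.58 FPKM against 0.765 to 7.85 (median 1.85). Actg2, the enteric smooth muscle actin, was at 123, 14.5 and 5.67 FPKM against 7.77 to 29.6 (median 17.6). Only Tet1-null library 1 left the range upwards for these 4 genes, and Actg2 and Myh11 were below it in Tdg-heterozygous library 2. The tropomyosins Tpm1 (393, 326 and 496 FPKM against 264 to 319) and Tpm2 (113, 29.6 and 39.8 FPKM against 11.7 to 26.8), which epithelium also makes, were above in all 3. Enteric neuron and glia genes had list medians of 0.79, 0.26 and -0.06 against -0.16 to 0.24. Of 11 genes, 3 were above the others in all 3, namely Snap25, Stmn2 and Ano1, and 1 was below. Among the 9, only control library 2 (1.31 FPKM) reached 1 FPKM for Stmn2, which therefore passed the filter only through the 3 libraries. Ano1, a chloride channel of pacemaker cells that epithelium can also make, was at 86.5, 74.5 and 107 FPKM against 13 to 53.9 (median 32.2). The neuropeptide Vip was at 3.59, 0.0739 and 0 FPKM against 0 to 1.47, above the others in Tet1-null library 1 alone. Vip passed the filter only with that library.

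Fibroblast genes had list medians of 1.08, 0.33 and -0.54 against -0.53 to 0.64, with 14, 6 and 2 of 22 above all 9 and 2, 1 and 6 below. Over all genes the shares were 29.5%, 27.2% and 28% above and 25.7%, 20.5% and 28.4% below, so the counts above in double-heterozygous library 0 and below in Tdg-heterozygous library 2 were near the background. Col3a1 was at 173, 75.2 and 39.4 FPKM against 38 to 89.8 (median 59.4). Dpt, a dermatopontin of matrix fibroblasts, was at 28.6, 6.11 and 7.39 FPKM against 3.96 to 9.03 (median 5.57), and Dcn, decorin, at 302, 239 and 143 FPKM against 61.2 to 177 (median 86.2). Tnc, a matrix protein of wounds and tumours, was above the others in all 3 at 26.1, 38.9 and 23.2 FPKM against 4.27 to 23.2, by a margin below the third digit in Tdg-heterozygous library 2. Vim, the intermediate filament of mesenchymal cells, was lower in Tet1-null library 1 and Tdg-heterozygous library 2 at 213, 291 and 157 FPKM against 267 to 756 (median 447). Genes of the villus and crypt niche stroma went both ways, with list medians of -0.16, 0.49 and -0.84 against -0.45 to 0.46. Of 11, 1 was above in all 3, Bmp2, and 2 were below, Bmp7 and Dkk3. The ligand Bmp2, which opposes Wnt signals along the crypt, was at 13.5, 29.5 and 62.4 FPKM against 4.25 to 12 (median 7.02). Dkk3, a secreted protein of the Dickkopf family, was at 7.51, 12.5 and 2.52 FPKM against 20.8 to 57 (median 32). Bmp4, another BMP ligand, was at 10.2, 9.67 and 2.92 FPKM against 6.31 to 18.3 (median 11.5), below the others in Tdg-heterozygous library 2. Grem1, an antagonist of BMP from muscle-associated stroma, was at 36, 34.6 and 14.2 FPKM against 6.09 to 20.7 (median 14.3), above the others in the first 2 only.

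Vessel genes were higher in 2 of the 3 libraries. Endothelial list medians were 1.13, 0.79 and -0.07 against -0.59 to 0.25. Above all 9 were 14, 12 and 1 of 19 genes, where 29.5%, 27.2% and 28% of all genes were. Pecam1 was at 22, 16.5 and 7.85 FPKM against 3.84 to 11.3 (median 7.31) and Plvap, of fenestrated vessels, at 32.7, 23.4 and 12.2 FPKM against 4.9 to 17.6 (median 10.7). Darc, named Ackr1 in GENCODE M21 and a marker of venules, was at 11.4, 5.57 and 2.67 FPKM against 0.505 to 2.74 (median 1.09). Sox17, an endothelial factor that can also antagonise beta-catenin, was below in all 3 at 2.21, 12.2 and 1.91 FPKM against 16.8 to 90.3 (median 52.5). Pericyte genes had list medians of 0.49, 0.66 and -0.58 against -0.67 to 0.39. Haemoglobin genes were inside the range of the 9 in all 3, with Hbb-bs at 164, 488 and 350.2 FPKM against 22.8 to 550.3 (median 103).

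**Figure D4:**
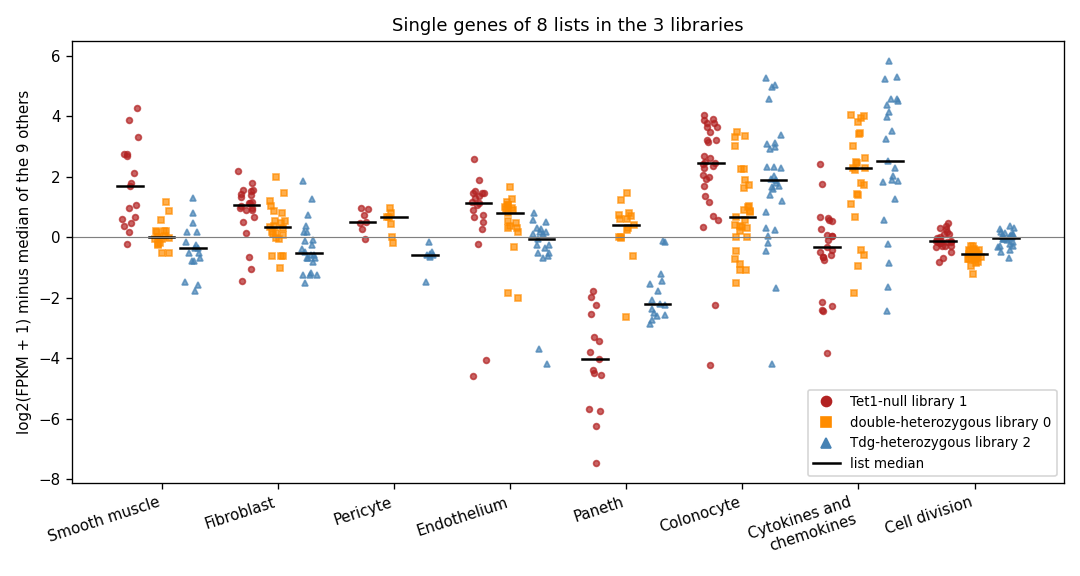
Difference of each gene of 8 lists from its median in the 9 other libraries, on the scale of log2(FPKM + 1), for each of the 3 libraries, with a bar at the list median. Smooth muscle and fibroblast medians are positive in Tet1-null library 1 and negative in Tdg-heterozygous library 2, and the cytokine median is slightly below 0 in Tet1-null library 1 and above 2 in the other two.

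Over the 39 lists set side by side, the median of Tet1-null library 1 lay above those of all 9 others in 19 lists and below them in 8. For double-heterozygous library 0 the numbers were 15 and 3, and for Tdg-heterozygous library 2 they were 14 and 8. With all libraries scaled to the same total, the numbers above and below became 14 and 13, 13 and 5, and 9 and 16, so that in Tdg-heterozygous library 2 lists below came to outnumber lists above. On the deposited scale, in 7 lists the 3 libraries were all above the 9, in 1 list, the feedback targets of Wnt, they were all below, and in 4 they were all inside. The 7 lists were epithelium in general, wound epithelium and YAP, immediate early, hypoxia and glycolysis, neutrophil, adipocyte and mesothelium (only 4 genes analysed), and housekeeping. The adipocyte and mesothelium list shares Krt19 with epithelium in general, so it is no separate reading of those cells. The 14 housekeeping genes, often used as a reference, had list medians of 0.22, 0.23 and 0.05 against -0.04 to 0.04, with 5 above in all 3 and 1 below. Among them Actb, the cytoskeletal actin, was at 2319, 2134 and 4309.6 FPKM against 1091 to 1770.1 (median 1340.3). The part of this difference in the values of the other lists was not tested.

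**Figure D5:**
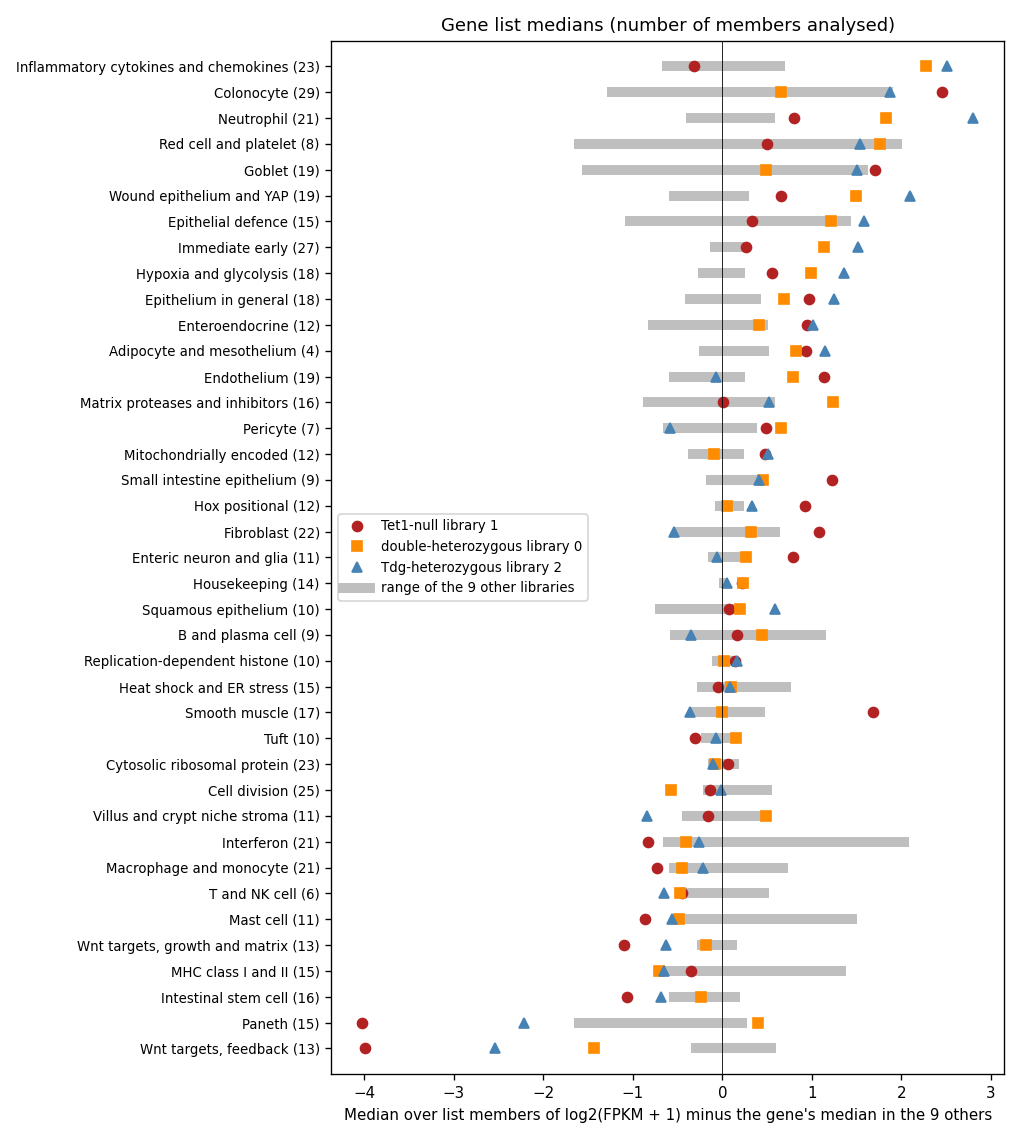
Median difference over the members of 39 gene lists from the gene's own median in the 9 other libraries (log2 of FPKM + 1), with the range of the same value in the 9 as a grey bar and the number of genes analysed in parentheses. All 3 libraries lie left of the bar for feedback targets of Wnt, and their order along the axis differs between lists.

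The largest gaps between the 3 and the 9 included genes not yet described. Above, after Sprr2h, came Slpi, an antiprotease of mucosal surfaces, at 1217, 862 and 1745 FPKM against 28.4 to 132 (median 67.2). It belongs to the epithelial defence list, whose medians were 0.33, 1.22 and 1.59 against -1.08 to 1.44, above the range in Tdg-heterozygous library 2 alone. Aldh1a3, which makes retinoic acid, was at 229.9, 287 and 754 FPKM against 11.7 to 43.8 (median 23.9). Gda, guanine deaminase, was at 81.2, 59.6 and 84.4 FPKM against 7.41 to 19.9 (median 10.4), and Hoga1, a mitochondrial aldolase, was at 18.8, 37.1 and 19.8 FPKM against 1.06 to 4.84 (median 2.99). Below, the widest gap was that of Ptn, the growth factor pleiotrophin, at 2.49, 6.6 and 1.1 FPKM against 44.3 to 169 (median 78.6). Wnt6, a Wnt ligand, was at 0.825, 4.57 and 1.0 FPKM against 19.5 to 58.4 (median 29.4), and Tubb4a, a beta-tubulin, was at 0.79, 4.08 and 1.85 FPKM against 16 to 34.9 (median 22.3). Pycr1, an enzyme of proline synthesis, was at 4.02, 5.43 and 2.81 FPKM against 16.3 to 63.1 (median 34.3), and Gstm7, a glutathione transferase, at 6.12, 4.93 and 2.26 FPKM against 20.3 to 63 (median 30.7). Gstm7 was lower in double-heterozygous library 0 than in Tet1-null library 1, unlike the feedback targets. Pbp2, at 3.02, 3.31 and 11.5 FPKM against 0 to 0.367 (median 0.25), passed the filter on low values only through the 3 libraries.

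Each of the 3 libraries was also set beside the 2 other libraries of its own genotype. These comparisons share no reference library, although a gene beyond all 9 others is beyond both genotype mates by construction. Genes at least 2-fold above both mates on the FPKM + 1 scale numbered 988 (6.52%), 629 (4.15%) and 1606 (10.6%), and those at least 2-fold below both numbered 994 (6.56%), 345 (2.28%) and 1037 (6.84%). The same counts for the 9 others had a median of 220 above, from 115 to 513, and a median of 133 below, from 88 to 791. The highest of these, 791, was that of Tet1-null library 0, whose mates include Tet1-null library 1. In all 3 libraries 134 genes (0.884%) were above and 128 (0.845%) below their mates. Of the 13 feedback targets 8 were among those below, namely Axin2, Notum, Nkd1, Wif1, Apcdd1, Sp5, Lef1 and Prox1. Of the 21 neutrophil genes 5 were among those above.

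Some genes separated a single library from all 11 others. At least 2-fold above all others were 75, 32 and 166 genes, and at least 2-fold below were 161, 7 and 37, where the 9 others had 0 to 84 and 1 to 127. Tet1-null library 1 had, next to its muscle genes, Mptx1, a mucosal pentraxin, at 323, 3.01 and 24.8 FPKM against 2.2 to 69.7 (median 4.9). It was also the lowest for Stra6, the receptor for retinol-binding protein, at 1.56, 58.3 and 53.6 FPKM against 68.2 to 215 (median 92). Double-heterozygous library 0 was the highest for the immunoglobulin light chain segments Igkv3-2, at 26.1, 175 and 1.28 FPKM against 0.318 to 41.6 (median 10.8), and Igkv4-68, at 1.92, 67.9 and 0.426 FPKM against 0 to 18.5 (median 2.0). Tdg-heterozygous library 2 was the highest for G0s2, an inhibitor of lipolysis, at 10.5, 36.4 and 153 FPKM against 3.29 to 8.93 (median 5.26), and for Irg1, named Acod1 in GENCODE M21 and making itaconate in activated macrophages, at 2.18, 17.8 and 75.5 FPKM against 0.673 to 4.2 (median 2.41). The same library was the highest for Clca4, at 126, 43.4 and 513 FPKM against 7.36 to 88.6 (median 29.5), and the lowest for Adamdec1, a protease of mucosal macrophages and fibroblasts, at 64.8, 57.4 and 14.8 FPKM against 43.2 to 117 (median 73.5).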

How the data were processed

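The submitters sequenced RNA of 12 colonic adenoma samples, 3 in each of 4 genotype groups. Per the labels' protocols, 500 ng of TRIzol-extracted total RNA per library was prepared with TruSeq chemistry and read from 1 end over 75 nt, and TopHat2 placed the reads on mm10. The submitters' processing notes also name Cufflinks and Cuffdiff, and their versions are not given in the sources used here. The authors deposited FPKM per gene, a unit read from the table's name and the tools. Counts of reads are unknown, so no interval for counting error was computed. Low values of library pairs shared 1 ratio for only 3.76% to 16.9% of genes, so reads were not recovered. A column gives its group and a number from 0 to 2 that matches no labelled replicate (1 to 3). No 2 columns held identical values.

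The analysis scale was log2(FPKM + 1) with the deposited scaling kept, in Python 3.11.15 with numpy 2.4.6 and pandas 2.3.3. GENCODE M21 held 25119 of the gene IDs and lacked 586. The filter kept 15150 genes, of which 424 reached 1 FPKM in fewer than 3 of the 9 others, and 73 of these were higher in all 3 libraries. The members of the comparison and the 39 gene lists (667 genes, 6 names unmatched) were chosen with earlier results of these data known. Genes were named as markers, as the 10 widest gaps in each direction, as the 5 farthest from all 11 others in each library and direction, and as up to 4 per list. Further list members were chosen with their values seen. No test was made, since the rule used every gene. The counting was tested on simulated data. Alternatives were pseudocounts (0.1 or 5), other filters (none, mean FPKM of 5, or on the 9 others), same-total, median-ratio and quantile scaling, protein-coding genes only, genotype mates as reference, a 4-fold margin, and leaving out each library.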

Additional observations from a re-analysis of the deposited data

How the results depend on the processing

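No paired analysis was possible because the columns are numbered 0 to 2 and carry none of the labels' replicate numbers, and because no result comes from a test. No marker, gene of the widest gaps or list median followed that lay beyond the 9 others in a library changed its direction under an alternative. This does not cover list medians that were not followed. The housekeeping median of Tdg-heterozygous library 2 was only 0.05, while scaling to the same total put the median gene of that library at -0.38. Of these single values under settings that kept all libraries, 905 moved by less than the spread of the 9 (1 SD) and 129 by more. With all libraries scaled to the same total, 926 genes were higher and 2625 lower in all 3, Tdg-heterozygous library 2 had 860 genes above and 1809 below its mates, lists below the 9 numbered 13, 5 and 16 in the order of the report, and lists above the 9 numbered 9 in Tdg-heterozygous library 2. With quantile normalization, 6 lists of double-heterozygous library 0 were below. With a pseudocount of 0.1, genes below both mates numbered 620 in double-heterozygous library 0 and 1645 in Tdg-heterozygous library 2. With a pseudocount of 5, genes above and below numbered 607 and 463 in Tet1-null library 1 and 365 and 147 in double-heterozygous library 0, and 414 were below in Tdg-heterozygous library 2. With protein-coding genes only, 222 were below in double-heterozygous library 0. A 4-fold margin left 211 above and 323 below, 168 and 67, and 415 and 269. A larger pseudocount, fewer genes and a wider margin lower such counts by construction; the cause of the other shifts was not tested.

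Leaving out a library can only widen the counts, apart from genes that leave the filter. Genes higher in all ran from 1873 to 2681 and lower from 1542 to 2680, the latter without double-heterozygous library 0. Genes above and below both mates ran from 967 to 2062 and 991 to 1849 in Tet1-null library 1, with 2062 and 1849 without Tet1-null library 2. They ran from 605 to 1428 and 343 to 769 in double-heterozygous library 0, with 1087 and 643 without its library 1 and 1428 and 769 without its library 2, and from 1568 to 2063 and 1035 to 1476 in Tdg-heterozygous library 2. The gap on component 1 was 20.8% to 53.2% of its range, and 53.2% without double-heterozygous library 0.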
